A study of Mus musculus with 11 samples.

Results

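The extracellular matrix, protease and integrin genes were the 92 protein-coding genes of the deposited table, of 4461 genes in all, whose symbols carry the family names of these proteins. The families were collagens, laminins, fibrillins, fibulins, thrombospondins, proteoglycans and hyaluronan synthases, Mmp, Adam and Adamts proteases, Timp inhibitors, lysyl oxidases, the urokinase system, serpins and integrins. Choice was by symbol, and 1 integrin gene with such a symbol was left out by the rule. The name match also brought in Col4a3bp, which encodes a ceramide transfer protein and not a collagen, and Itgbl1, whose product resembles an integrin beta chain.

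Cells sit on a basement membrane of laminins, type IV collagen and perlecan, and in connective tissue they meet fibronectin and fibrillar collagens. Integrins, heterodimers of an alpha and a beta chain, bind these proteins and anchor them to the cytoskeleton. Metalloproteinases and the serine protease urokinase open the matrix, Timps and serpins hold proteases in check, and lysyl oxidases crosslink collagen. Epithelial cells make mainly basement membrane, while fibronectin, interstitial collagens and decorin are known chiefly as products of mesenchymal cells.

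The cells were lines grown from mammary tumors of female NIC mice, in which an MMTV-driven transgene gives mammary epithelium both oncogenic ErbB2 and Cre recombinase. All lines carried this transgene, and none was treated. The 4 NIC/Cpt1a L/L lines (KO_1922, KO_1925, KO_2768 and KO_4258) came from mice whose conditional Cpt1a alleles, the gene of the carnitine palmitoyltransferase that admits long-chain fatty acids to mitochondria, are deleted by that Cre, and the 2 NIC/Cpt1a +/+ lines (WT_5257 and WT_8905) from mice with wild-type alleles. Tumors were taken 8 weeks after they could be felt. Genotypes were read from the genotype field of the labels, which the sample titles contradict, and no source used here says which animal each line came from. Duplicate libraries of 5 lines and 1 library of KO_2768, 11 in all, measured total RNA as read counts per gene. The labels number the duplicates as biological replicates, and no source used here says whether they came from separate cultures. The line was taken as the replicate.

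The 11 libraries held 18247312 to 25386785 reads in Cpt1a L/L lines and 15199378 to 17372643 in Cpt1a +/+ lines, so depth and genotype are confounded and their parts cannot be told apart. The members took 0.562% to 1.69% of the reads of a library. Levels are given as CPM, edgeR's counts relative to the library total after TMM scaling, with duplicates summed. The floor of 3 counts per line corresponds to 0.069 to 0.116 CPM and covers counting error only. Duplicates agreed closely, with a median absolute log2 ratio over members at 10 CPM or more of 0.033 to 0.084, depending on the line. Cpt1a, Erbb2 and all 10 epithelial marker genes listed for this work lie outside the table and were not analysed here, so neither the deletion nor the epithelial label was checked. Of 14 fibroblast and mesenchymal markers, 6 were in the table, and their summed level was 69.5 to 783 CPM in Cpt1a L/L lines against 5.62 to 10.8 CPM in Cpt1a +/+ lines. S100a4 made up most of it, at 154, 64.4, 169 and 781 CPM in KO_1922, KO_1925, KO_2768 and KO_4258 and 3.72 and 1.69 CPM in WT_5257 and WT_8905. Acta2, Col1a2, Pdgfrb and Thy1 were highest in KO_2768, at 3.88, 5.70, 13.4 and 6.16 CPM, and lay at or under 0.046 CPM in KO_4258. Of these markers, Col1a2 is also a member. Tagln lay the other way, at 1.13 to 2.87 CPM in Cpt1a L/L lines, highest in KO_1922, and 7.07 and 3.75 CPM in WT_5257 and WT_8905. In bulk RNA more cells of a type and more RNA per cell cannot be told apart. Of 8 immune markers only Csf1r was listed, at 312 CPM in KO_4258, 17.2 in KO_1925, 4.03 in KO_1922 and at most 0.44 in the other lines. The part of these markers in the results was not tested.

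**Figure D1:**
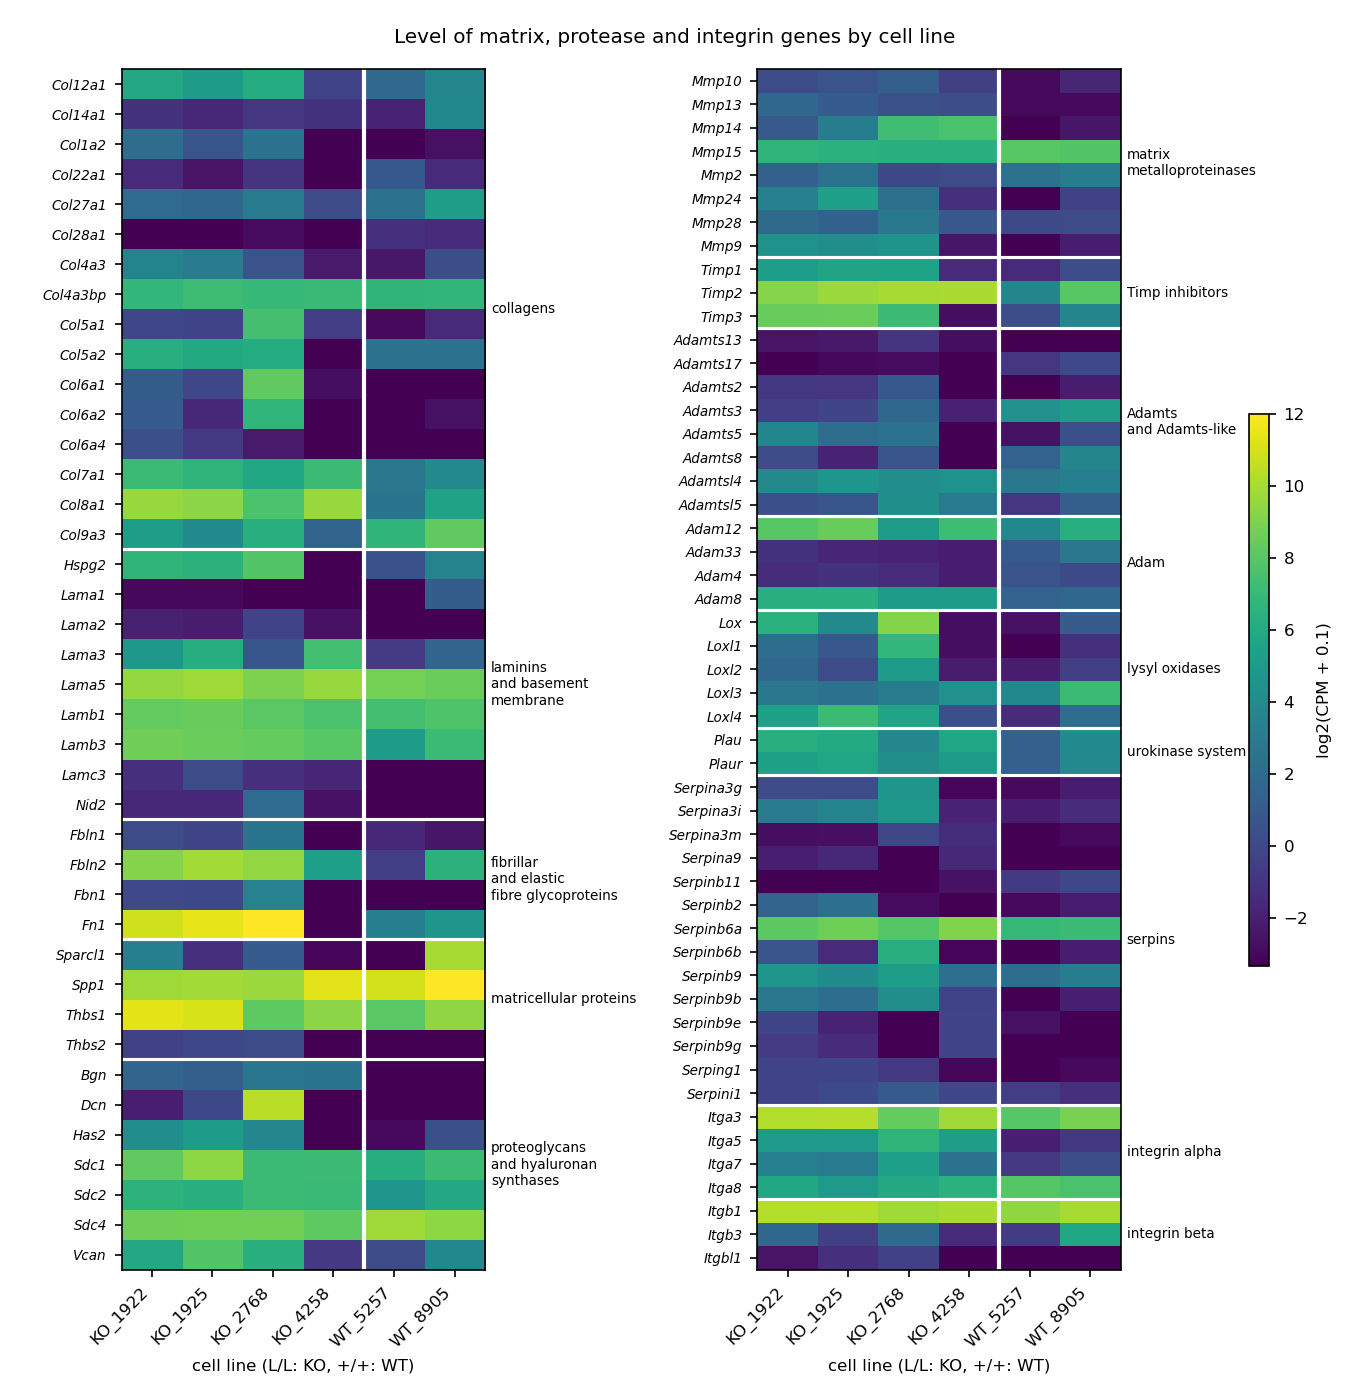
Level of each member shown as log2(CPM + 0.1), by cell line, with duplicates summed. Columns are the 4 Cpt1a L/L lines (KO) and, right of the white line, the 2 Cpt1a +/+ lines (WT), and white horizontal lines part the families. Fn1 runs from 1929 to 4563 CPM in 3 L/L lines and is at 0 in KO_4258.

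The first comparison asked which members differ between the genotypes. Every gene of the table had passed the study's own test of this contrast, so the values below describe genes already chosen for a difference and are no independent evidence of one. Of the 92 members, 86 passed edgeR's expression filter. Their log2 fold changes were above 0 (higher in Cpt1a L/L) in 68 and below 0 in 18, or 79.1% above 0 against 58.6% of all 4268 genes tested. The median log2 fold change was 3.39, or 2.93 with the 9 tested members that had 0 counts in every Cpt1a +/+ library set at their lower bound, beside 0.49 over the table. The 6 members that failed the filter were Adamts13, Col28a1, Lama1, Lama2, Nid2 and Serpina9, all low in most lines.

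With lines as replicates, edgeR's quasi-likelihood test with Benjamini-Hochberg adjustment over the tested table called 5 members higher in Cpt1a L/L lines (Adam8, Bgn, Col7a1, Itga5 and Mmp13) and 2 lower (Adam33 and Mmp15). In the table as a whole 1.66% of genes were called higher and 3.47% lower. At an unadjusted p under 0.05, 26 members were higher and 12 lower, beside 21.5% and 29% of the table. Counting 20000 genes in the adjustment, to allow for genes that were left out of the table, no member passed and the smallest adjusted p was 0.108. Among tests with 1 Cpt1a L/L line left out, none passed without KO_1922 or KO_1925, and 16 higher and 7 lower passed without KO_4258. The table moved likewise, from 71 higher and 148 lower to 0 and 0 without KO_1922 or KO_1925. It moved to 294 and 347 without KO_4258. Genes given below as passing without KO_4258 did so in that run and are not counted as called. Of the 7 calls made with all lines, Bgn and Mmp15 alone were among those made without WT_8905. In CPM, all 4 Cpt1a L/L lines lay above both Cpt1a +/+ lines in 28 members and below both in 12, and the genotypes overlapped in 52. These counts are 30.4% and 13% of the 92 members, against 35.3% above and 37.6% below over the table. Members with separate genotypes were thus less common than among listed genes at large, mostly through the share below both controls. Without KO_4258 the count above became 60 (65.2%, against 46.1% of the table), and without WT_8905 it became 51 (55.4%, against 46.5%). The count below became 19 without WT_5257 (20.7%, against 39.2%).

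**Figure D2:**
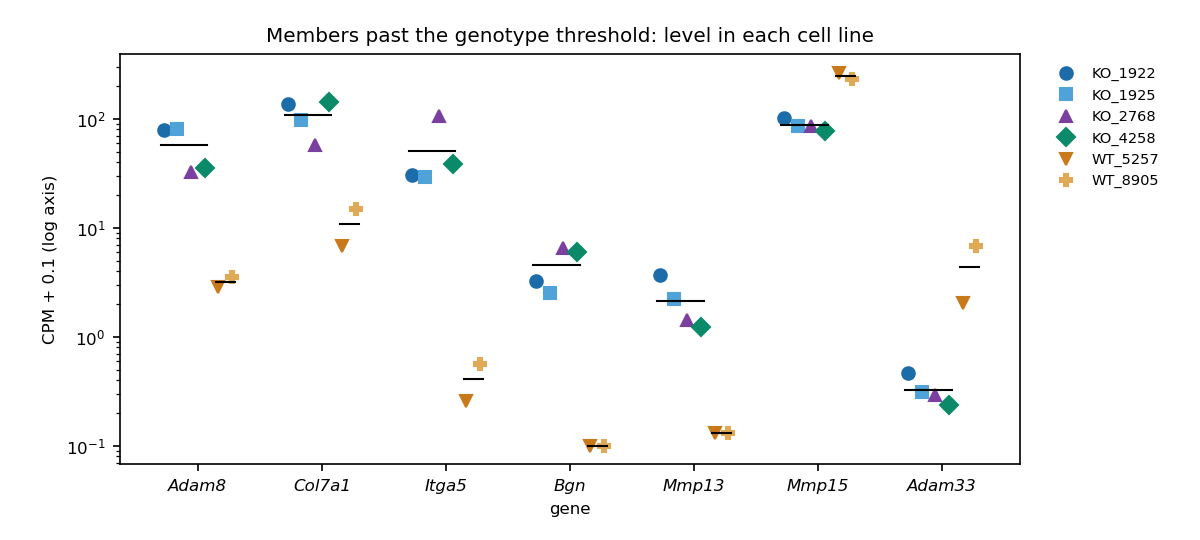
Level of the 7 members past the genotype threshold in each of the 6 lines, as CPM + 0.1 on a log axis, where points are lines and black bars the mean of each genotype. In the first 5 genes every L/L line lies above both +/+ lines, and in Mmp15 and Adam33 every L/L line lies below.

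Adam8, a membrane-anchored metalloprotease of leukocytes and invasive tumor cells, stood at 79.4, 81.2, 32.1 and 35.6 CPM in KO_1922, KO_1925, KO_2768 and KO_4258, and at 2.75 and 3.43 CPM in WT_5257 and WT_8905. The lowest Cpt1a L/L line was thus far above the higher control. Its log2 fold change was 4.21 ± 0.60 (SE, n = 4 and 2 lines, edgeR adjusted p = 0.0344). An annotated antisense gene, Gm16201, overlaps Adam8, and no source used here says whether counting used strand.

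Col7a1 encodes the anchoring fibril collagen that ties the basement membrane to the tissue beneath. Its levels were 136, 97.9, 57.6 and 143 CPM in the Cpt1a L/L lines in the same order, against 6.76 and 14.7 CPM in the controls. The log2 fold change was 3.34 ± 0.56 (SE, edgeR adjusted p = 0.0421).

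Itga5, the alpha chain of the main fibronectin receptor, reached 30.3, 29.4, 106 and 38.7 CPM in Cpt1a L/L lines and 0.158 and 0.468 CPM in Cpt1a +/+ lines. KO_2768 stood highest, and the other L/L lines lay close together, with a log2 fold change of 6.62 without KO_2768 that still passed. The log2 fold change was 7.33 ± 1.03 (SE, edgeR adjusted p = 0.0344), a call that limma-voom with the correlation of duplicates did not make.

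Bgn, the small leucine-rich proteoglycan biglycan, was at 3.13, 2.40, 6.47 and 5.93 CPM in Cpt1a L/L lines and had 0 counts in all 4 Cpt1a +/+ libraries. Against the floor of 3 counts per line the mean was at least 47.6-fold higher (edgeR adjusted p = 0.0344). Mmp13, interstitial collagenase-3, was low throughout, at 3.57, 2.14, 1.32 and 1.13 CPM in Cpt1a L/L lines against 0.032 and 0.031 CPM. It had 312 counts in all L/L libraries and 2 in the controls. The ratio of these counts per read sequenced was 69.7, with an exact 95% interval of 19.1 to 578 that covers counting error only (edgeR adjusted p = 0.0421). With limma-voom and the correlation of duplicates this call was lost too.

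In the opposite direction, Mmp15, the membrane-type metalloproteinase MT2-MMP, had the smallest adjusted p among members. It stood at 101, 86.5, 84.9 and 77.8 CPM in Cpt1a L/L lines and 265 and 230 CPM in the controls, a log2 fold change of -1.50 ± 0.17 (SE, edgeR adjusted p = 0.0231). Lines of each genotype kept close to one another here. Adam33 was at 0.364, 0.209, 0.194 and 0.138 CPM against 1.96 and 6.65 CPM, with a log2 fold change of -4.23 ± 0.73 (SE, edgeR adjusted p = 0.0429). The control lines themselves differed for this gene by 1.82 ± 0.29 on the log2 scale (SE over duplicates), and without KO_2768 it missed the threshold.

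Promoters are printed here for 4 of the called members, Mmp13, Itga5 and Bgn (higher) and Mmp15 (lower). That of Mmp14, which did not pass, is shown as that of another membrane-type metalloproteinase beside Mmp15. RefSeq promoter windows of build GRCm38.p6, from 250 bases before to 50 after the start and read along the gene's strand, were found for 57 of the 92 members, 64 windows in all. Letters of 4 motifs, searched on both strands, stand in capitals: TGANTCA of AP-1, CAGGTG, an E-box of Snail and Zeb factors, CATTCC of TEAD, and GGGCGG of Sp1. The windows shown are chr14:54431348-54431647 (+) for Mmp14, chr9:7272264-7272563 (+) for Mmp13, chr8:95352046-95352345 (+) for Mmp15, chr15:103366742-103367041 (-) for Itga5 and chrX:73483351-73483650 (+) for Bgn.
Mmp14: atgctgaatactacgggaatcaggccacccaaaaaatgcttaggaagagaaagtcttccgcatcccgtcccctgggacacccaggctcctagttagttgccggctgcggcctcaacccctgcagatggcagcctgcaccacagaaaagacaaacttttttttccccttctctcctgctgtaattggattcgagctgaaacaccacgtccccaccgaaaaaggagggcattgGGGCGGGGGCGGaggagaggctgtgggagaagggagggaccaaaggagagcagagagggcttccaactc
Mmp13: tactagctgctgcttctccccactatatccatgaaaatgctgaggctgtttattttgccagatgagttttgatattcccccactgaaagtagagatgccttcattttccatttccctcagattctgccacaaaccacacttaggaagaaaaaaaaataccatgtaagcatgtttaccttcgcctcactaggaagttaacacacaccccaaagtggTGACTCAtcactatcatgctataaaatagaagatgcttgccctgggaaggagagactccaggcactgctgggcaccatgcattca
Mmp15: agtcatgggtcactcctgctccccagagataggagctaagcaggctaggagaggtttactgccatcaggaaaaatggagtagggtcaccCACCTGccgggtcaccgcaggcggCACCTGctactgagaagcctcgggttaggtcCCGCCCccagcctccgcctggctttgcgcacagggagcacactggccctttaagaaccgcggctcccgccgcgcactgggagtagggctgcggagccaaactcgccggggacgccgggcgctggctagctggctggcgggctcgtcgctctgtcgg
Itga5: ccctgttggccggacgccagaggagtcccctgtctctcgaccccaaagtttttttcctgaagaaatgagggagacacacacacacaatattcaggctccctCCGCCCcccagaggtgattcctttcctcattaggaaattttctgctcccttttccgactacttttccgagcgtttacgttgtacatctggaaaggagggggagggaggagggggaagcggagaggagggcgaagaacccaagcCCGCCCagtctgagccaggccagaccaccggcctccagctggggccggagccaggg
Bgn: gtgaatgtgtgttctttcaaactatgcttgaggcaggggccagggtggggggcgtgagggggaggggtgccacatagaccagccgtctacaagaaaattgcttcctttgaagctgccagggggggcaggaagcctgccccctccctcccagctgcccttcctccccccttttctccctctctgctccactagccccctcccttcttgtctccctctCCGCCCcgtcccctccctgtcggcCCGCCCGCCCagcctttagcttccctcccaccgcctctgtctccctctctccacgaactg
The Mmp13 window holds 1 AP-1 match and no Sp1 match, with 43.7% G and C. The windows of Mmp14, Itga5 and Bgn hold 2, 2 and 3 Sp1 matches and none of the other motifs. The Mmp15 window holds 2 E-box matches and 1 Sp1 match. Over all members' windows, AP-1 letters occurred in 12.5% against 7.81% of the 32851 windows of the genome, E-box letters in 20.3% against 20.2%, TEAD letters in 10.9% against 14.7% and Sp1 letters in 65.6% against 35.7%. These are letter matches only, untested, and say nothing of binding.

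The 16 genes named as collagens included 11 with a log2 fold change above 0 and 4 below, of 15 tested, and Col7a1 alone passed. Their levels differed most by line. Col6a1, a chain of microfibrillar type VI collagen, was at 304 CPM in KO_2768, at 2.23, 0.861 and 0.046 CPM in KO_1922, KO_1925 and KO_4258, and at 0 in the controls. Its partner chain Col6a2 had 107 CPM in KO_2768 and at most 1.99 CPM elsewhere. Col5a1, of fibril-nucleating type V collagen, showed the same form, with 176 CPM in KO_2768, 0.874, 0.835 and 0.598 CPM in the other L/L lines, and 0.032 and 0.250 CPM in the controls (edgeR adjusted p = 0.117). The mean of Col6a1 was at least 816-fold higher in Cpt1a L/L lines, through KO_2768. Without KO_2768 the log2 fold change of Col5a1 went from 8.27 to 2.34. Col5a2 did not follow it. It was at 77.6, 64.3 and 72.2 CPM in KO_1922, KO_1925 and KO_2768 and at 0 in KO_4258, with 5.68 and 5.59 CPM in the controls. Col6a2 and Col5a2 lie outside the rule for named genes and were chosen after their values were seen.

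Col8a1, a short-chain collagen, had the highest mean per length of the collagens in Cpt1a L/L lines, at 121 FPKM. It too lies outside the rule for named genes and was chosen after its values were seen. In KO_2768 it was at 41.0 FPKM, under Col6a1 at 75.4 FPKM. In CPM it stood at 782, 645, 206 and 800 against 5.75 and 45.9 (log2 fold change 4.56 ± 1.13, SE, edgeR adjusted p = 0.0619). Its groups did not overlap, though it missed the threshold. Col9a3, a chain of cartilage type IX collagen, lay the other way, at 38.1, 16.1, 80.3 and 2.92 CPM against 105 and 300 CPM (edgeR adjusted p = 0.107), and it shares exons with Tcfl5 on the other strand. Col4a3bp was nearly level, at 112, 153, 124 and 126 CPM against 103 and 106 CPM.

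Laminins and basement membrane genes gave 6 log2 fold changes above 0 of 6 tested, with none called. Lama5, the alpha chain of laminins common under epithelia, was at 759, 887, 505 and 792 CPM against 452 and 362 CPM, a log2 fold change of 0.85 ± 0.29 (SE, edgeR adjusted p = 0.0798). Lamb3, a chain of the hemidesmosomal laminin, was at 408, 364, 333 and 263 CPM against 34.1 and 138 CPM (log2 fold change 1.99 ± 0.59, SE, edgeR adjusted p = 0.0705). Both kept the genotypes apart with modest spread among L/L lines. Lamc3 was low, at 0.340, 1.10, 0.310 and 0.207 CPM against 0 in both controls, at least 5.18-fold higher. Outside the rule for named genes and chosen after its values were seen, Hspg2, which encodes perlecan, stood at 104, 91.6 and 234 CPM in 3 L/L lines, at 0 in KO_4258, and at 1.33 and 11.3 CPM in the controls.

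Fibronectin showed the widest range of all. Fn1 was at 1929, 2798 and 4563 CPM in KO_1922, KO_1925 and KO_2768, at 0 in KO_4258, and at 9.34 and 26.8 CPM in WT_5257 and WT_8905. So 3 Cpt1a L/L lines lay far above the controls and the remaining one below them (log2 fold change 7.01 ± 3.47, SE, edgeR adjusted p = 0.126). Without KO_4258, the line at 0, the log2 fold change was 7.43 and passed the threshold. Leaving that line out removes the disagreement among L/L lines, and calls over the whole table rose as well. All 4 fibrillar and elastic fibre genes had log2 fold changes above 0, and none passed. Fbn1, the gene of fibrillin-1, was at 0.923, 0.913 and 10.8 CPM in KO_1922, KO_1925 and KO_2768. Outside the rule for named genes, it was chosen after its values were seen. It had 0 counts in KO_4258 and in both controls. Its mean was at least 33.6-fold higher in Cpt1a L/L lines, mainly through KO_2768 (edgeR adjusted p = 0.107). Apol7d overlaps Fn1 on the other strand.

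Among matricellular proteins, which modulate cell contact with matrix, none passed. Spp1, the gene of osteopontin, had the highest mean per length of the members in both genotypes, at 867 FPKM (SD 532, n = 4) and 2153 FPKM (SD 1236, n = 2). In KO_2768, Dcn at 737 FPKM and Fn1 at 558 FPKM lay above Spp1 at 548 FPKM. In CPM Spp1 was at 889, 936, 813 and 2580 against 1981 and 4707, so that KO_4258 lay between the controls (edgeR adjusted p = 0.111). Without KO_4258, the L/L line that overlapped the controls, its log2 fold change of -1.36 became -1.92 and passed, in the run with more calls over the whole table. Chosen after its values were seen, Sparcl1, a relative of osteonectin, had 1013 CPM in WT_8905, 0 in WT_5257 and at most 9.83 CPM in any Cpt1a L/L line.

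Proteoglycans and hyaluronan synthases gave 6 log2 fold changes above 0 of 7, with Bgn called. Dcn, the collagen-binding proteoglycan decorin, was at 1368 CPM in KO_2768, 0.146 and 0.887 CPM in KO_1922 and KO_1925, and 0 in KO_4258 and both controls. Its log2 fold change therefore rests on 1 library (edgeR adjusted p = 0.148). Among syndecans, transmembrane heparan sulfate proteoglycans, Sdc1 was at 304, 663, 140 and 143 CPM against 76.2 and 144 CPM (edgeR adjusted p = 0.134). Sdc2 was at 96.9, 80.1, 142 and 135 CPM against 26.4 and 60.7 CPM, a log2 fold change of 1.38 ± 0.43 (SE, edgeR adjusted p = 0.0751). Sdc4 lay the other way, at 415, 427, 423 and 299 CPM against 882 and 685 CPM, a log2 fold change of -1.0 ± 0.22 (SE, edgeR adjusted p = 0.0572). Without KO_4258, the lowest L/L line, it was -0.89 and passed, in the run with more calls over the whole table. The syndecans thus split by member, though none passed with all lines.

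Of 8 matrix metalloproteinases, 6 had log2 fold changes above 0 and 2 below, with Mmp13 and Mmp15 called. Mmp14, the membrane-type metalloproteinase MT1-MMP that activates pro-Mmp2, stood at 1.92, 8.98, 157 and 193 CPM in the Cpt1a L/L lines and at 0 and 0.094 CPM in the controls. All lines of the genotypes were separate, but the L/L lines formed a low and a high pair. It had 12869 counts in L/L libraries and 3 in controls, a ratio of 1920 with an exact 95% interval of 656 to 9300 for counting error (edgeR adjusted p = 0.0682). Mmp14 and Mmp15, both membrane-anchored, therefore had log2 fold changes of opposite sign. Mmp9, a gelatinase, was at 23.4, 19.6 and 24.6 CPM in 3 L/L lines and 0.092 CPM in KO_4258, against 0 and 0.125 CPM (edgeR adjusted p = 0.0792). Mmp2, the other gelatinase, was at 2.53, 5.25, 0.891 and 1.01 CPM against 5.27 and 9.05 CPM (edgeR adjusted p = 0.138).

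The 3 Timp inhibitors all had log2 fold changes above 0, and none passed. Timp2 was at 592, 842, 1017 and 1062 CPM against 12.8 and 262 CPM, with no overlap but a wide gap between the controls (log2 fold change 2.67 ± 1.14, SE, edgeR adjusted p = 0.104). Timp1 was at 36.5, 48.6 and 47.2 CPM in 3 L/L lines and 0.276 CPM in KO_4258, against 0.253 and 1.12 CPM (edgeR adjusted p = 0.0915). Timp3, the inhibitor that binds to matrix, was at 347, 356 and 145 CPM in those lines and 0.046 CPM in KO_4258, against 1.14 and 12.3 CPM (edgeR adjusted p = 0.147). Thus KO_4258 was within or below the range of the controls for Mmp9, Timp1 and Timp3, while it was the highest line for Mmp14 and Timp2. Without KO_4258, the lowest L/L line for both, Mmp9 passed the threshold with a log2 fold change of 8.41, and so did Timp1 with 6.0. Calls rose over the whole table in that run.

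Adamts and Adamts-like genes were divided, with 4 log2 fold changes above 0 and 3 below of 7 tested, and none called. Adamts3, a procollagen N-propeptidase, was at 0.583, 0.835, 3.45 and 0.161 CPM against 21.7 and 36.7 CPM, a log2 fold change of -4.54 ± 1.12 (SE, edgeR adjusted p = 0.0619). Adamtsl4, a fibrillin-binding protein without protease activity, was at 14.9, 26.7, 18.3 and 21.9 CPM against 6.57 and 9.71 CPM (edgeR adjusted p = 0.0682). Adamts17 and Adam4 were lower in every L/L line but lay under 1.5 CPM in all 6 lines, at adjusted p of 0.0576 and 0.0705 by edgeR.

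The urokinase system gave log2 fold changes above 0 in both members. Plau, urokinase, was at 82.4, 66.3, 13.7 and 51.0 CPM against 2.49 and 17.0 CPM, so that KO_2768 lay below WT_8905 (edgeR adjusted p = 0.103). Plaur, its receptor, was at 41.3, 51.7, 19.2 and 33.0 CPM against 2.53 and 14.5 CPM (edgeR adjusted p = 0.0947). Over all serpins 13 of 14 tested had log2 fold changes above 0, the exception being Serpinb11, and none passed. Serpinb9b was at 6.56, 4.57, 19.3 and 0.736 CPM against 0 and 0.156 CPM. Serpinb11 had 0 counts in 3 L/L lines, 0.069 CPM in KO_4258, and 0.505 and 0.905 CPM in the controls. Genes of the Serpina3, Serpinb6 and Serpinb9 clusters resemble one another closely, so reads may have been lost or assigned to another copy.

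Lysyl oxidases crosslink collagen and elastin, and 4 of the 5 had log2 fold changes above 0, with none called. Lox was at 572 CPM in KO_2768, 88.2 CPM in KO_1922, 15.2 CPM in KO_1925 and 0.046 CPM in KO_4258, against 0.063 and 2.00 CPM (edgeR adjusted p = 0.123). It was highest in the same line as Col6a1, Col5a1 and Dcn. That line also had the most Acta2, Pdgfrb, Thy1 and Col1a2, the last itself a member. The other listed mesenchymal markers, S100a4 and Tagln, were highest among L/L lines in KO_4258 and KO_1922.

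Integrin alpha chains gave 3 log2 fold changes above 0 and 1 below. Beside Itga5, the laminin-binding chain Itga7 was at 10.5, 7.59, 39.7 and 5.66 CPM against 0.474 and 1.16 CPM, a log2 fold change of 4.28 ± 1.17 (SE, edgeR adjusted p = 0.0665). Itga8, whose receptor binds nephronectin and other RGD proteins, lay the other way, at 56.7, 30.5, 60.9 and 89.6 CPM against 247 and 198 CPM (log2 fold change -1.90 ± 0.40, SE, edgeR adjusted p = 0.0515). Itgb1, the beta chain that pairs with all of these, was at 1247, 1257, 911 and 1069 CPM against 698 and 1009 CPM, a log2 fold change of 0.39 ± 0.26 (SE, edgeR adjusted p = 0.193), near the table's median of 0.49. The partner alpha chains thus spanned values of both signs around a beta chain with overlapping groups.

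Further members outside the naming rule, chosen after their values were seen, repeat these forms or add others. Vcan, the large proteoglycan versican, was at 60.0, 233 and 86.2 CPM in KO_1922, KO_1925 and KO_2768 and 0.483 CPM in KO_4258, against 1.10 and 14.4 CPM. Has2, a hyaluronan synthase, was at 17.8, 33.7 and 13.4 CPM in those lines and 0 in KO_4258, against 0.032 and 1.22 CPM. Both thus resembled Fn1 in lacking or nearly lacking reads in KO_4258. Thbs1, an adhesive glycoprotein, was at 2640 and 2112 CPM in KO_1922 and KO_1925, 290 CPM in KO_2768 and 643 CPM in KO_4258, against 269 and 705 CPM. Itga3, a laminin receptor chain, was at 1190.2, 1268, 329.9 and 900.0 CPM against 261 and 480 CPM. KO_2768 lay between the controls for both genes, as did KO_4258 for Thbs1. Lama3, the partner of Lamb3 in hemidesmosomal laminin, was at 28.5, 74.5, 1.63 and 162 CPM against 0.537 and 3.06 CPM, again with KO_2768 between the controls. A last form was a high level in WT_8905 alone. Itgb3, the beta chain of the vitronectin receptor, was at 55.6 CPM there, 0.537 CPM in WT_5257 and at most 3.64 CPM in L/L lines. Col14a1, of fibril-associated type XIV collagen, was at 14.2 CPM in WT_8905 and at most 0.426 CPM in the other lines. None of these 7 genes passed the genotype threshold.

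**Figure D3:**
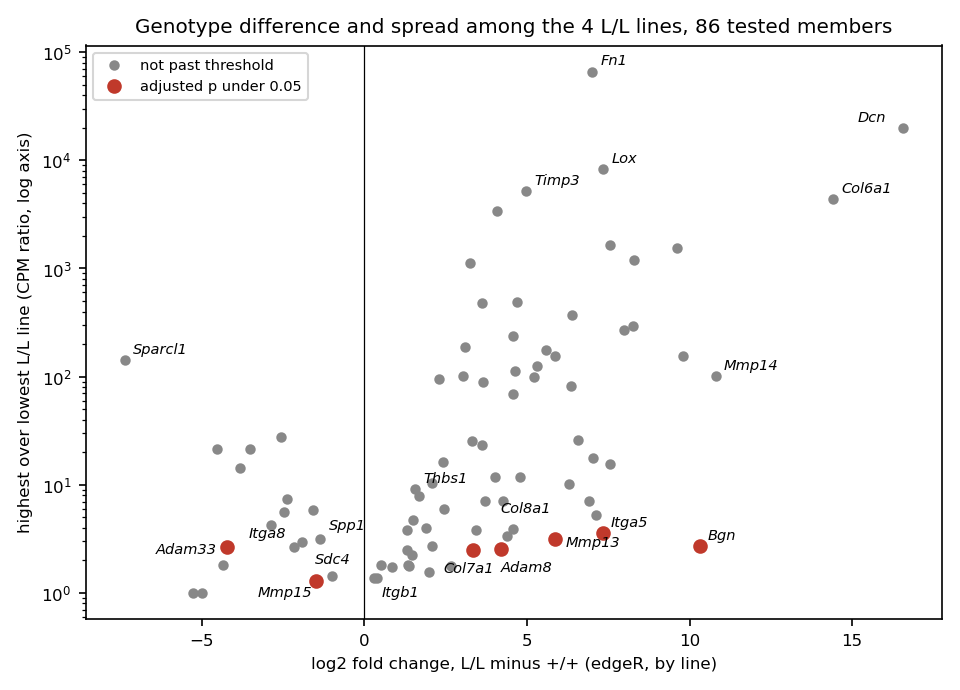
Log2 fold change between genotypes (x axis, Cpt1a L/L minus Cpt1a +/+) against the ratio of the highest to the lowest L/L line in CPM (log axis), for the 86 tested members, with the lowest line taken at no less than 3 counts and the x values of genes at 0 in the controls, such as Dcn, Col6a1 and Bgn, set by the fit. Red points, adjusted p under 0.05, all have ratios under 4, whereas Dcn, Fn1, Lox and Col6a1 have ratios from 4411 up. The genotype test takes the spread among these same L/L lines as error, so genes with wide ratios could hardly pass. This contrast is therefore built into the test.

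The second comparison asked whether the 4 Cpt1a L/L lines were alike in these genes, which the table was not selected on. A test of any difference among them, in an edgeR fit with 1 mean per line, called 83 of 89 members tested, beside 88.6% of the table. With a difference of at least 2-fold between the highest and lowest line, 73 members were called, beside 47.1% of the table. The median ratio of highest to lowest line was 10.3 over the members and 1.99 over the table. These p-values measure the spread between duplicate libraries of a line only, and KO_2768 has 1 library and borrows the spread of the others. KO_2768 was the highest L/L line for 44 of 92 members (47.8%, against 30.9% of the table), and KO_4258 the lowest for 57 (62.0%, against 36.1%).

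The widest ratios, with the lowest line at no less than its floor, were those of Fn1 at 66138, Dcn at 19827, Lox at 8287, Timp3 at 5165 and Col6a1 at 4411 (edgeR adjusted p at most 6.41e-49). The narrowest among members at a mean of 1 CPM or more were those of Mmp15 at 1.30, Col4a3bp at 1.37, Itgb1 at 1.38, Sdc4 at 1.43 and Lamb3 at 1.55. Even these differed among lines by the same test (edgeR adjusted p at most 8.80e-08). The wide end thus held fibronectin, decorin, a crosslinking enzyme, a protease inhibitor and a collagen chain. The narrow end held an integrin chain, a syndecan, a membrane protease, a laminin chain and the ceramide transfer gene.

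Line by line, 10 members (10.9%) were at or under 3 counts in KO_4258 while every other L/L line had 1 CPM or more, beside 2.73% of the table. They were Adamts5, Col1a2, Col5a2, Fn1, Has2, Hspg2, Lox, Loxl1, Serpina3g and Timp3. No member was absent in this way from another L/L line. In KO_2768, 9 members (9.78%) were at 1 CPM or more and at least 10-fold over the next L/L line, beside 1.10% of the table. These were Col5a1, Col6a1, Col6a2, Dcn, Fbn1, Loxl1, Nid2, Serpina3g and Serpinb6b, and no member did so in another L/L line. Both counts were chosen after the values were seen.

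**Figure D4:**
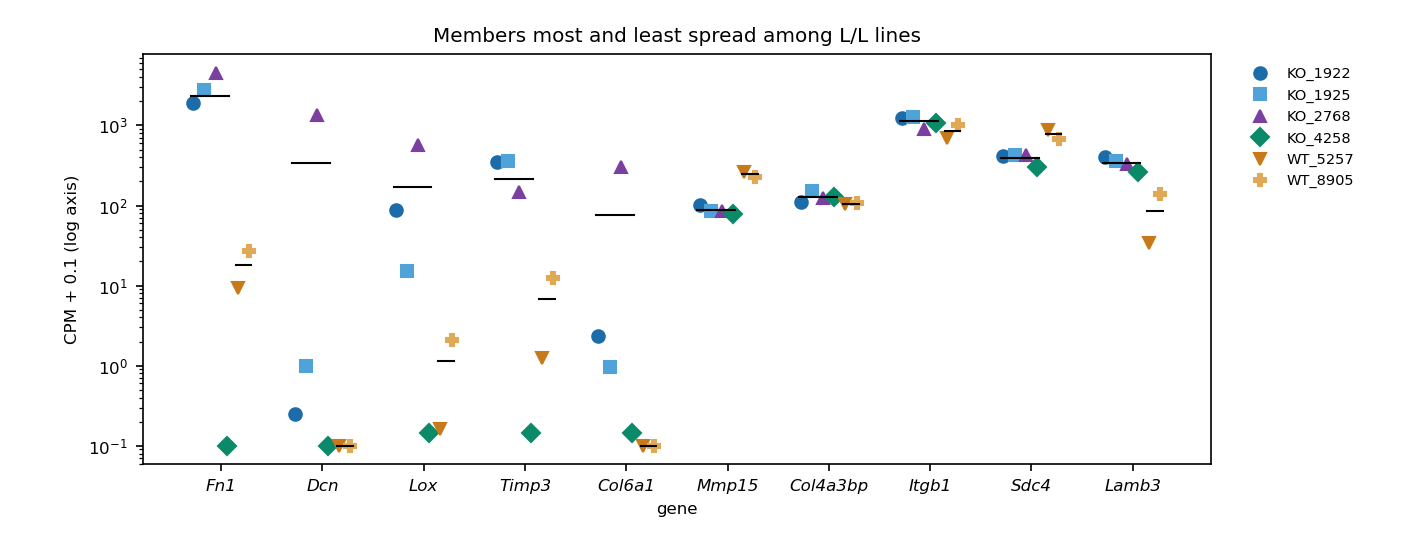
Level of the 5 members with the widest and the 5 with the narrowest ratio of highest to lowest Cpt1a L/L line, as CPM + 0.1 on a log axis, with points for lines and black bars for the mean of each genotype. KO_4258 is the lowest L/L line in the first 5 genes, and all 6 lines lie between 34.1 and 1257 CPM for the last 5.

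The controls were compared in the same fit. Between WT_8905 and WT_5257, 55 members differed, beside 61.1% of the table, and 43 of them by at least 2-fold, beside 22.5% of the table. Of the 55, 50 were higher in WT_8905, a split by direction that was not counted over the table. The 5 higher in WT_5257 were Col22a1, Itga8, Lama5, Mmp15 and Sdc4, the last 4 by less than 0.32 on the log2 scale. Timp2 was higher in WT_8905 by a log2 fold change of 4.41 ± 0.07 (SE over duplicates, edgeR adjusted p = 2.12e-43), Lamb3 by 2.06 ± 0.06 (8.20e-32) and Fn1 by 1.57 ± 0.10 (3.21e-19). Adam8 differed by 0.38 ± 0.22 and did not pass (edgeR adjusted p = 0.130). At or under 3 counts in both control lines were 20 members (21.7%), beside 11.3% of the table. In every L/L line 4 members were, a count not made over the table. It asks for 4 deeper lines where the other asks for 2, so the 20 and the 4 cannot be compared.

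Genes that work beside the members were taken from lists written for this work, which also hold the members Sparcl1 and Itgbl1. Of 40 integrin adhesion adaptors 18 were in the table, 10 with log2 fold changes above 0 and 8 below, and 1 passed. That was Tln2, a talin that links integrins to actin, at 15.7, 17.6, 26.2 and 12.9 CPM in Cpt1a L/L lines against 66.4 and 50.3 CPM (log2 fold change -1.69 ± 0.32, SE, edgeR adjusted p = 0.0479). Of 31 genes on the collagen processing list 8 were in the table and 7 tested, 5 above 0 and 2 below, and none passed. The 2 below include the member Sparcl1, a matricellular protein and not an enzyme. Of 58 other matrix genes 21 were listed and 20 tested, 17 above 0 and 3 below, with 2 called higher.

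Both called matrix genes encode secreted proteins that bind growth factors or modulate adhesion. Igfbp7 was at 997, 731, 495 and 680 CPM against 10.5 and 20.5 CPM (log2 fold change 5.55 ± 0.52, SE, edgeR adjusted p = 0.0206). Wisp2 was at 67.3, 28.7, 119 and 73.6 CPM against 0.253 and 0.062 CPM (log2 fold change 8.81 ± 1.03, SE, edgeR adjusted p = 0.0254). Of 36 matrix receptors and glycan enzymes 12 were listed and 11 tested, 8 above 0, the member Itgbl1 among them, and 3 below. Hs3st1, a heparan sulfate sulfotransferase, passed. It stood at 25.2, 16.1, 19.1 and 29.9 CPM against 155 and 149 CPM (log2 fold change -2.75 ± 0.27, SE, edgeR adjusted p = 0.0209). In all 4 of these genes every L/L line lay on one side of both controls.

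Per length, the order of the most abundant members differed between genotypes. By mean FPKM over Cpt1a L/L lines, Spp1 was followed by Itgb1 at 299 (SD 49.5), Fn1 at 286 (SD 232), Thbs1 at 250 (SD 204), Timp2 at 239 (SD 52.4) and Itga3 at 193 (SD 91.5). The values from Itgb1 to Itga3 lie within a standard deviation of Fn1 and cannot be ranked by these lines. In Cpt1a +/+ lines Spp1 was followed by Sdc4 at 310 (SD 56.0), Itgb1 at 217 (SD 55.3), Sparcl1 at 158 (SD 223) and Thbs1 at 80.8 (SD 51.1). Fn1 was at 1.09 and 3.12 FPKM in the controls.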

How the data were processed

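Members and gene lists were chosen with earlier results of these data known. Per the labels and the study's methods, the authors trimmed reads, aligned them to mm10 with STAR and deposited HTSeq read counts per gene, for the genes past their own test only. They also deposited FPKM and a normalized signal, counts divided by 1 size factor per library. Their own fold changes and p-values were not used. Whether counting used strand is not given in the sources used here, and 26 members share exons with a gene on the other strand. Library totals were recovered from counts, gene lengths and FPKM. Duplicates were summed by line, filtered with filterByExpr, scaled by TMM (factors 0.969 to 1.05) on the listed genes and tested in edgeR 4.0.16 (R 4.3.3), with adjusted p under 0.05 as the threshold. Line differences were tested on the 11 libraries with 1 mean per line. The functions were tested on simulated data. Alternatives were the library as sample, a block for replicate number, limma 3.58.1, DESeq2 1.42.0, scaling, the filter, the number of genes adjusted for and each line left out. The authors' size factors as a scaling were chosen after seeing the data. Named members are, per family, the 2 largest changes each way without overlap, all called members, a list of well-known genes, and the 5 widest and 5 narrowest among Cpt1a L/L lines. Figures were made with matplotlib 3.10.9. Values of some genes are not reported here.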

Additional observations from a re-analysis of the deposited data

Results flagged for a closer look

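Of the 39 named members, 34 could be tested for a single Cpt1a L/L line far from the other 3, by the gap to the nearest line divided by the range of the 4 lines in CPM. In 8 the ratio passed Dixon's critical value for 4 values, set for 1 in 20 under a normal distribution, which was not checked here. Some of these members were named for a wide ratio among the same lines or a large change, so this count partly follows from the choice. Over genes at a mean of 1 CPM or more, 22.5% of 71 members and 11.6% of 3705 listed genes passed. KO_2768 was the line apart, and the highest, in Dcn (0.999), Col5a1 (0.998), Col6a1 (0.993), Itga5 (0.878), Itga7 (0.858) and Lox (0.846). KO_4258 was the line apart in Spp1 (0.930, highest) and in Sdc4 (0.912, lowest). The 6 genes of KO_2768 span a proteoglycan, 2 collagen chains, 2 integrin alpha chains and a lysyl oxidase, and this line was measured with 1 library.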

How the results depend on the processing

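Calls between genotypes depended on the unit and on the number of genes adjusted for. With 5 members higher and 2 lower by line, edgeR gave 51 and 14 with every library a separate sample, and 43 and 14 with a replicate block added. limma-voom with the correlation of duplicates (0.955) gave 10 and 9, DESeq2 on line sums 37 and 13, and adjustment counting 20000 genes 0 and 0. Lower calls became 5 with median-of-ratios scaling and 4 without the filter. Without one line the calls ranged from 0 to 16 higher and from 0 to 7 lower. They were 0 and 0 without KO_1922, KO_1925 or WT_5257, 16 and 7 without KO_4258, and 4 and 1 without WT_8905. With a control left out, the remaining one is assumed to vary like the other lines. Members above both controls ranged from 28 to 60, and below from 12 to 19. Table-wide calls, 71 higher and 148 lower, became 105 and 301 with median-of-ratios scaling, 57 and 82 with the authors' size factors, 948 and 1429 with DESeq2, 305 and 919 with limma-voom, 1873 and 1680 by library, 1706 and 1680 with the block, 90 and 252 without the filter, and 0 to 294 and 0 to 347 without one line. The table's median log2 fold change was 0.49, 0.37 with median-of-ratios and 0.59 with the authors' size factors, while 68 members stayed above 0 and 18 below under each. No named member changed sign under any alternative run. Line differences stayed within 82 to 83 and 53 to 57 members under the other scaling, the block and no filter. Replicate numbers did not pair libraries of different lines (10 pairs, r from -0.045 to 0.042). The causes of these shifts were not tested.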
